A study of Mus musculus with 30 samples.

Results

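Fn1 encodes fibronectin, a large secreted glycoprotein of the extracellular matrix. It was 1 of the 46603 genes in the deposited count table, chosen by its symbol because earlier results had shown its fall in culture and its partial return with lactate. RNA was sequenced in bulk from macrophages of subcutaneous tumours, grown in wild-type C57BL/6 mice from the Lewis lung carcinoma line 3LL-R. A sort on MHC class II, which presents antigen to CD4 T cells, had split these tumour-associated macrophages into an MHC-IIhi and an MHC-IIlo subset. Each subset gave 3 groups of 5 libraries. In the fresh groups 30000 cells were lysed straight after the sort. In the no-lactate groups 250000 cells were cultured for 24 h, and in the lactate groups 250000 cells were cultured for 24 h with 20 mM sodium L-lactate. The labels name the libraries biological replicates and do not say which animals gave the cells, so p-values measure the spread between these libraries. Culture also differed from the fresh groups in cell number and lysis, so the effect of time in culture cannot be told apart from these.

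Fibronectin is made as dimers that cells bind through integrins, stretch and assemble into fibrils. The classical receptor is the pair of integrin chains encoded by Itga5 and Itgb1, which binds an arginine-glycine-aspartate (RGD) run in the protein. TGF-beta signalling is a textbook inducer of the gene. Macrophages and monocytes make fibronectin, as do fibroblasts, endothelial cells, hepatocytes and many tumour cells.

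Fn1 (ENSMUSG00000026193) lies on chromosome 1 of GRCm38, from 71585520 to 71653200 on the minus strand, and has a gene model of 11685 bases with 45 exons and 17 transcripts in the count table. GENCODE M21, on the same build, also lists 17 transcripts, of which 9 are protein coding and 7 of these have a coding sequence of more than 5 kb. In the transcript with the longest coding sequence, Fn1-201, an in-frame search for codons of arginine, glycine and aspartate in a row found 2 places. Both are shown because several integrins described below recognise such a run; binding was not measured here. The 9 bases of those 3 codons are in capitals, with 36 bases on each side, read 5′ to 3′ on the minus strand.
Fn1-201 codon 1614, exon 30: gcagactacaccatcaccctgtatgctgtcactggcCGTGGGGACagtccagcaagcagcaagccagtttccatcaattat
Fn1-201 codon 2181, exon 40: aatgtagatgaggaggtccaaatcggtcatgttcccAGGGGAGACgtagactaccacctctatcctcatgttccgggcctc
The first stretch is at chr1:71606710-71606790 and lies in an exon of all 7 long coding transcripts. The second is at chr1:71597407-71597487 and lies in an exon of 5 of the 7. Alternative splicing also includes or skips whole exons of the gene. An exon of 270 bases (71603660 to 71603929) is in 4 of the 7 long coding transcripts, and one of 273 bases (71613763 to 71614035) in 1 of the 7. By length and order along the gene these are the exons called EDA and EDB. The table counts reads per gene, so the forms of fibronectin were not told apart. Apol7d, on the other strand, overlaps the first bases of Fn1. It had at most 217 counts in a library, and whether counting used strand is not given in the sources used here.

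Library totals ran from 16913250 to 31481548 counts. Levels are counts scaled to a library total of 1e6 (counts per M, CPM), and changes are log2 fold changes ± SE from edgeR after TMM scaling. Summed CPM of 12 macrophage markers ran from 24545 to 31832 in fresh and from 6856 to 19090 in cultured libraries, with no marker at 0 in a whole group. Lactate MHC-IIlo 5 had the lowest macrophage sum and a TMM factor of 1.28, against 0.9006 to 1.0996 in the other 29. Cultured libraries are named here by the number in the column header, which is other than the number in the sample label.

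In fresh macrophages Fn1 was among the most abundant transcripts. Fresh MHC-IIhi libraries 1 to 5 held 18833, 23821, 15696, 14978 and 17189 CPM, from 307374 to 402885 counts each. Fresh MHC-IIlo libraries 1 to 5 held 9253, 11435, 10183, 9073 and 5737 CPM. All 5 MHC-IIhi libraries were above all 5 MHC-IIlo libraries, and MHC-IIlo 5 was the lowest of the 10. Fn1 took 1.498% to 2.38% of all counts in fresh MHC-IIhi and had the most counts of any gene in 4 of the 5 libraries, the second most in the other. In fresh MHC-IIlo it took 0.574% to 1.14% and ranked from 2 to 9. Fn1 has a long gene model, and per kilobase its rank was 13 to 27 in fresh MHC-IIhi and 38 to 108 in fresh MHC-IIlo.

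After 24 h without lactate little of this was left. No-lactate MHC-IIhi libraries 3 to 7 held 100.3, 130.0, 134.2, 88.6 and 71.4 CPM. No-lactate MHC-IIlo libraries 1, 3, 4, 5 and 6 held 32.5, 26.4, 20.1, 22.7 and 21.4 CPM. The groups did not overlap, and each lay far under every fresh library. By counts Fn1 ranked from 1515 to 3044 in no-lactate MHC-IIhi and from 5065 to 6739 in no-lactate MHC-IIlo.

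With lactate the level was higher again in MHC-IIhi cells and less evenly so in MHC-IIlo cells. Lactate MHC-IIhi libraries 1, 3, 4, 5 and 6 held 429.8, 431.6, 175.6, 371.3 and 343.1 CPM, all above the highest no-lactate MHC-IIhi library, with library 4 well under the other 4. Lactate MHC-IIlo libraries 1, 3, 4, 5 and 6 held 103.7, 28.1, 29.2, 35.5 and 42.8 CPM. Library 1 stood apart from the others there, and libraries 3 and 4 were within the range of no-lactate MHC-IIlo. These counts are of 509 reads or more in each library, so counting error was small beside the spread between libraries.

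**Figure D1:**
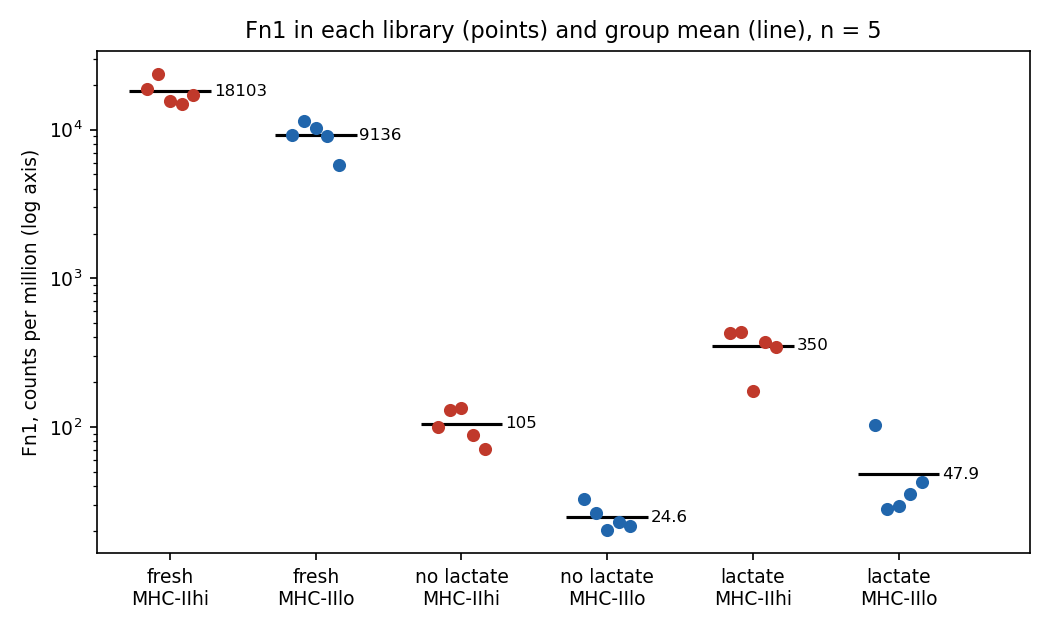
Fn1 in CPM (log axis) in each of the 30 libraries, red for MHC-IIhi and blue for MHC-IIlo, with the mean of the 5 libraries of a group as a line and its value beside it. Fresh libraries sit between 5737 and 23821 CPM and cultured ones between 20.1 and 431.6 CPM, and 1 lactate MHC-IIlo library, at 103.7 CPM, stands above the other 4.

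The order of the group means was fresh MHC-IIhi (18103 ± 3522 CPM, SD, n = 5), fresh MHC-IIlo (9136 ± 2119 CPM), lactate MHC-IIhi (350.3 ± 104.8 CPM), no-lactate MHC-IIhi (104.9 ± 26.9 CPM), lactate MHC-IIlo (47.9 ± 31.7 CPM) and no-lactate MHC-IIlo (24.6 ± 4.97 CPM). The first 3 steps in this order had no overlap between neighbouring groups. No-lactate MHC-IIhi and lactate MHC-IIlo overlapped, through lactate MHC-IIlo 1, and so did lactate and no-lactate MHC-IIlo. The SD of log2 CPM was 0.26 in fresh MHC-IIhi, 0.38 in fresh MHC-IIlo, 0.38 and 0.28 in the no-lactate groups, 0.54 in lactate MHC-IIhi and 0.77 in lactate MHC-IIlo.

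The fall in culture and the rise with lactate chose the gene, so their sizes are given as a description, with no test. From fresh to no-lactate culture the log2 fold change was -7.39 ± 0.26 in MHC-IIhi, a level 167.4-fold lower, and -8.46 ± 0.27 in MHC-IIlo, a level 352-fold lower. Of 13682 genes, 62.0% were called between fresh and no-lactate MHC-IIhi at an edgeR adjusted p under 0.05 (31.6% higher and 30.4% lower in culture), and 57.5% in MHC-IIlo (27.6% higher and 29.9% lower). A lower fold change than that of Fn1 was found in 12 of these genes in MHC-IIhi and in 7 in MHC-IIlo, and among the 5473 with an average log2 CPM of at least 5 in 1 in each subset. The no-lactate mean was 0.579% of the fresh mean in MHC-IIhi and 0.270% in MHC-IIlo.

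Between lactate and no-lactate culture the log2 fold change was 1.75 ± 0.33 in MHC-IIhi (3.36-fold) and 0.92 ± 0.33 in MHC-IIlo (1.89-fold). Genes called in that contrast were 0.250% of 13593 in MHC-IIhi (0.206% higher and 0.0441% lower with lactate) and 1.49% in MHC-IIlo (0.905% higher and 0.581% lower). A higher fold change than that of Fn1 was found in 9 of the 13593 genes in MHC-IIhi and in 344 in MHC-IIlo. Among the 5318 with an average log2 CPM of at least 5 it was found in 0 and 36. Without lactate MHC-IIlo 1 the change in MHC-IIlo was 0.37 and the mean lactate level 33.9 ± 6.74 CPM (n = 4), and without lactate MHC-IIlo 5 the change was 1.06. Lactate left Fn1 far under its fresh level. The lactate mean was 1.93% of the fresh mean in MHC-IIhi and 0.524% in MHC-IIlo (0.371% without library 1). On the log2 scale this regained 22.95% of the drop in MHC-IIhi and 9.26% in MHC-IIlo (5.43% without library 1). Lactate culture against fresh gave -5.65 ± 0.39 in MHC-IIhi and -7.55 ± 0.42 in MHC-IIlo, with the same fresh libraries on one side as the culture contrasts.

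The difference between the subsets was not itself used to choose the gene and was tested. Earlier results of these data were known when the gene and the tests were chosen, so these p-values are not independent of that choice. Fn1 was lower in MHC-IIlo than in MHC-IIhi cells in all 3 conditions, and the groups did not overlap in any. The log2 fold change was -0.98 ± 0.16 in fresh cells (1.97-fold lower, edgeR adjusted p = 0.000555), where 29.2% of 12787 genes were called (14% higher and 15.2% lower in MHC-IIlo). It was -2.05 ± 0.34 without lactate (4.14-fold lower, edgeR adjusted p = 0.000132), where 20.8% of 13593 genes were called (9.20% higher and 11.6% lower). With lactate it was -2.88 ± 0.35 (7.37-fold lower, edgeR adjusted p = 4.11e-06), where 22.4% were called (9.13% higher and 13.3% lower).

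Whether culture changed Fn1 by a different amount in the subsets was tested with an interaction term. This term and the one for lactate are differences of changes that chose the gene. Their p-values are therefore not independent of that choice. The drop in MHC-IIlo was deeper by 1.07 ± 0.28 on the log2 scale (interaction -1.07, edgeR adjusted p = 0.0116), and 14.3% of 13682 genes were called in that test. With all 30 libraries in 1 fit the adjusted p was 0.105, so the call did not hold there. The rise with lactate was smaller in MHC-IIlo by 0.83 ± 0.46 (interaction -0.83, edgeR adjusted p = 0.667), which did not pass. In that test edgeR called 0 of 13593 genes (0.00%), with 1018 at an unadjusted p under 0.05. DESeq2 called 2 and limma voom 2. The Fn1 interaction was -1.37 without lactate MHC-IIlo 1 and -0.68 without lactate MHC-IIlo 5.

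Genes whose level followed that of Fn1 most closely over the 30 libraries were found by the root mean square difference between profiles of log2 CPM, each centred on its own mean. Of 14015 genes, Cdh1 was nearest, at 0.92, and the next included Nr4a1, Rab44, Egr1, Trem1, Gfra2, Gabbr2, Pi16 and, as the tenth, B3gnt7 at 1.44. The gene at the median was at 3.71. Since most of the variance of Fn1 is the step from fresh to cultured cells, these are genes that were high in fresh and low in cultured libraries. Cdh1, the adhesion protein E-cadherin, had means of 444.1 and 115.1 CPM in fresh MHC-IIhi and MHC-IIlo, 7.61 and 1.41 CPM without lactate and 9.80 and 1.58 CPM with it. Nr4a1, an orphan nuclear receptor induced by stimulation, had 889.4 and 423.3 CPM in the fresh subsets and 2.94 to 5.56 CPM in the 4 cultured groups. Egr1, an immediate early transcription factor, had 263.7 and 191.4 CPM in the fresh subsets and 1.27 to 3.83 CPM in culture. Trem1, an activating receptor of myeloid cells, had 397.7 and 147.0 CPM in the fresh subsets, 10.98 and 1.42 CPM without lactate and 15.4 and 5.61 CPM with it. The group profiles shared the step at culture, but the rise with lactate in MHC-IIhi was 0.40 on the log2 scale or less in these 9 genes (Trem1 had the 0.40) against 1.75 in Fn1. In MHC-IIlo Trem1 rose by 1.42, more than the 0.92 of Fn1, with a single high library at 17.5 CPM. The rest of these genes rose by less than Fn1 there or fell, with the largest fall in B3gnt7 (-0.98).

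**Figure D2:**
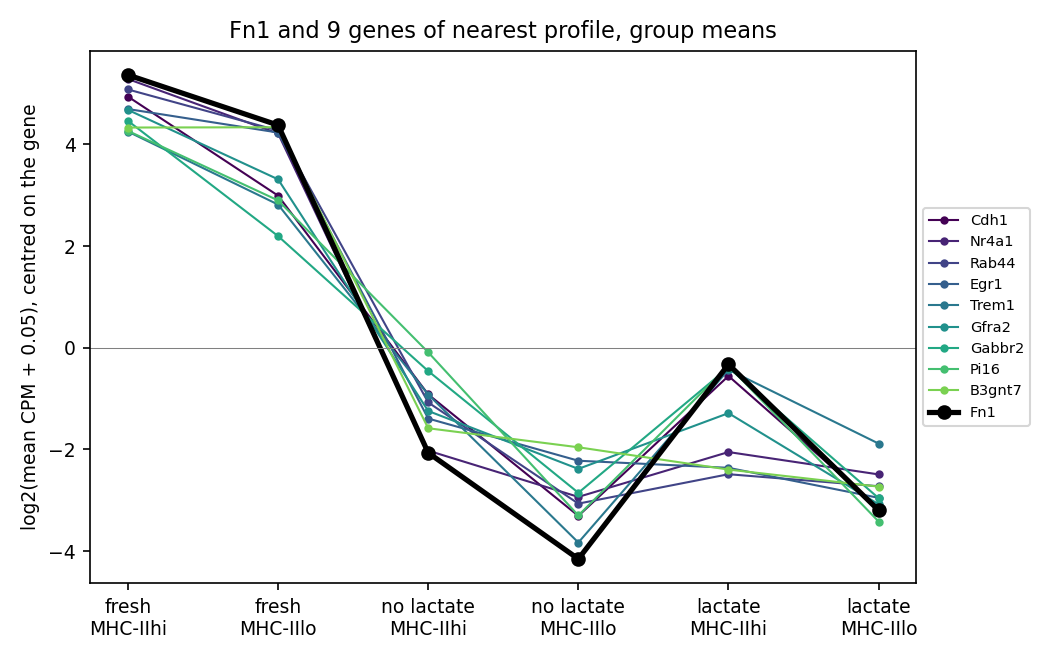
Group means of Fn1 (thick black line) and 9 of the genes of nearest profile, as log2 of mean CPM plus 0.05, centred on each gene's mean over the 6 groups. All 10 lines drop from the fresh to the no-lactate groups, and Fn1 has the deepest drop of the 10, from 18103 to 104.9 CPM in MHC-IIhi.

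The chains of fibronectin receptors were followed in the same libraries. Itga5, the alpha chain of the classical fibronectin receptor, rose in culture while Fn1 was low. Its mean was 261.2 ± 28.2 CPM in fresh MHC-IIhi (237.3 to 294.2) and 582.4 ± 117.4 CPM without lactate (436.8 to 731.4), a log2 fold change of 1.19 ± 0.12 (edgeR adjusted p = 2.28e-08). In MHC-IIlo it went from 218.3 ± 16.6 to 428.8 ± 25.2 CPM (1.03 ± 0.12, edgeR adjusted p = 2.23e-07). Fresh and cultured libraries did not overlap in either subset. Itgb1, its beta partner, fell in culture, from 751.7 ± 31.98 to 567.7 ± 33.6 CPM in MHC-IIhi (-0.37 ± 0.07, edgeR adjusted p = 0.000119) and from 959.5 ± 46.1 to 537.4 ± 47.5 CPM in MHC-IIlo (-0.78 ± 0.07, edgeR adjusted p = 6.19e-09). Compared per kilobase of gene model, fresh MHC-IIhi cells had 1549 CPM of Fn1 per kb, 184.2 of Itgb1 and 59.7 of Itga5. In no-lactate MHC-IIhi the order was turned, with 8.98 CPM of Fn1 per kb, 139.1 of Itgb1 and 133.0 of Itga5.

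The other integrin chains took several courses. Itgav, the alpha chain of vitronectin and RGD receptors, rose in culture in MHC-IIhi, from 66.7 ± 11.1 to 145.2 ± 25.997 CPM (1.16 ± 0.12, edgeR adjusted p = 1.72e-08), and less in MHC-IIlo, from 76.7 ± 13.9 to 92.1 ± 12.04 CPM (0.33 ± 0.11, edgeR adjusted p = 0.0186, which did not pass when all 30 libraries shared 1 fit). The difference of these changes was -0.83 ± 0.16 (edgeR adjusted p = 0.00129). Itgb3, which pairs with Itgav, was low throughout, at 2.21 ± 0.62 and 4.21 ± 1.02 CPM in the fresh subsets, and rose to 9.74 ± 3.00 and 14.1 ± 4.57 CPM without lactate. Itga4, the alpha chain of the receptor for the alternatively spliced part of fibronectin, was at 66.1 ± 17.2 CPM in fresh and 76.2 ± 44.5 CPM in no-lactate MHC-IIhi, which did not pass (edgeR adjusted p = 0.501). In MHC-IIlo it fell from 48.7 ± 6.04 to 18.6 ± 7.68 CPM (-1.32 ± 0.31, edgeR adjusted p = 0.00105). Of the 10 fibronectin-binding integrin chains tested, 5 rose and 3 fell in MHC-IIhi culture, and 5 rose and 4 fell in MHC-IIlo culture. The medians were 0.66 and -0.01 against 0.01 and -0.01 over all genes tested. Of all genes 31.6% rose and 30.4% fell in MHC-IIhi culture, and 27.6% and 29.9% in MHC-IIlo culture. Itga9, a chain that binds the EDA segment, fell in MHC-IIlo (-3.55 ± 0.27, edgeR adjusted p = 4.4e-10), and Itgb8, an activator of latent TGF-beta, rose in MHC-IIhi (5.72 ± 0.52, edgeR adjusted p = 3.59e-08).

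Between fresh subsets the receptors went both ways. Of 9 integrin chains tested, 5 were higher and 2 lower in MHC-IIlo, where Fn1 was lower, and of 6 other fibronectin receptors 2 were higher and 0 lower. Of the 5 calls of higher chains, 4 were lost under at least 1 alternative and that of Itga9 was not. Itga9 was at 131.1 ± 19.3 against 43.8 ± 13.4 CPM (1.59 ± 0.23, edgeR adjusted p = 0.000232). Itgb1 was higher in MHC-IIlo (0.36 ± 0.06, edgeR adjusted p = 0.00101). Itga5 was lower (-0.25 ± 0.08, edgeR adjusted p = 0.0322), but did not pass without a filter on low counts or when all 30 libraries shared 1 fit. In culture Itga4 and Itgb8 were lower in MHC-IIlo, as Fn1 was. Itga4 differed by -1.98 ± 0.47 without lactate (edgeR adjusted p = 0.00389) and by -3.20 ± 0.49 with it (edgeR adjusted p = 7.49e-05). In each condition the calls in either direction over all genes were the 29.2%, 20.8% and 22.4% given above.

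In the main fit lactate moved none of these chains past the threshold. In both subsets edgeR called 0 of 10 integrin chains and 0 of 7 other receptors between lactate and no-lactate culture. Over all genes only 0.250% were called in MHC-IIhi and 1.49% in MHC-IIlo. In lists of this size 0 calls therefore say little about the receptors. Itga5 changed by -0.04 ± 0.17 in MHC-IIhi (edgeR adjusted p = 0.957) and -0.01 ± 0.17 in MHC-IIlo (edgeR adjusted p = 0.977). Itgav changed by 0.39 ± 0.17 in MHC-IIlo (edgeR adjusted p = 0.241), and lactate MHC-IIlo 5 held 245.9 CPM of it against 93.2 to 105.6 CPM in the other 4.

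**Figure D3:**
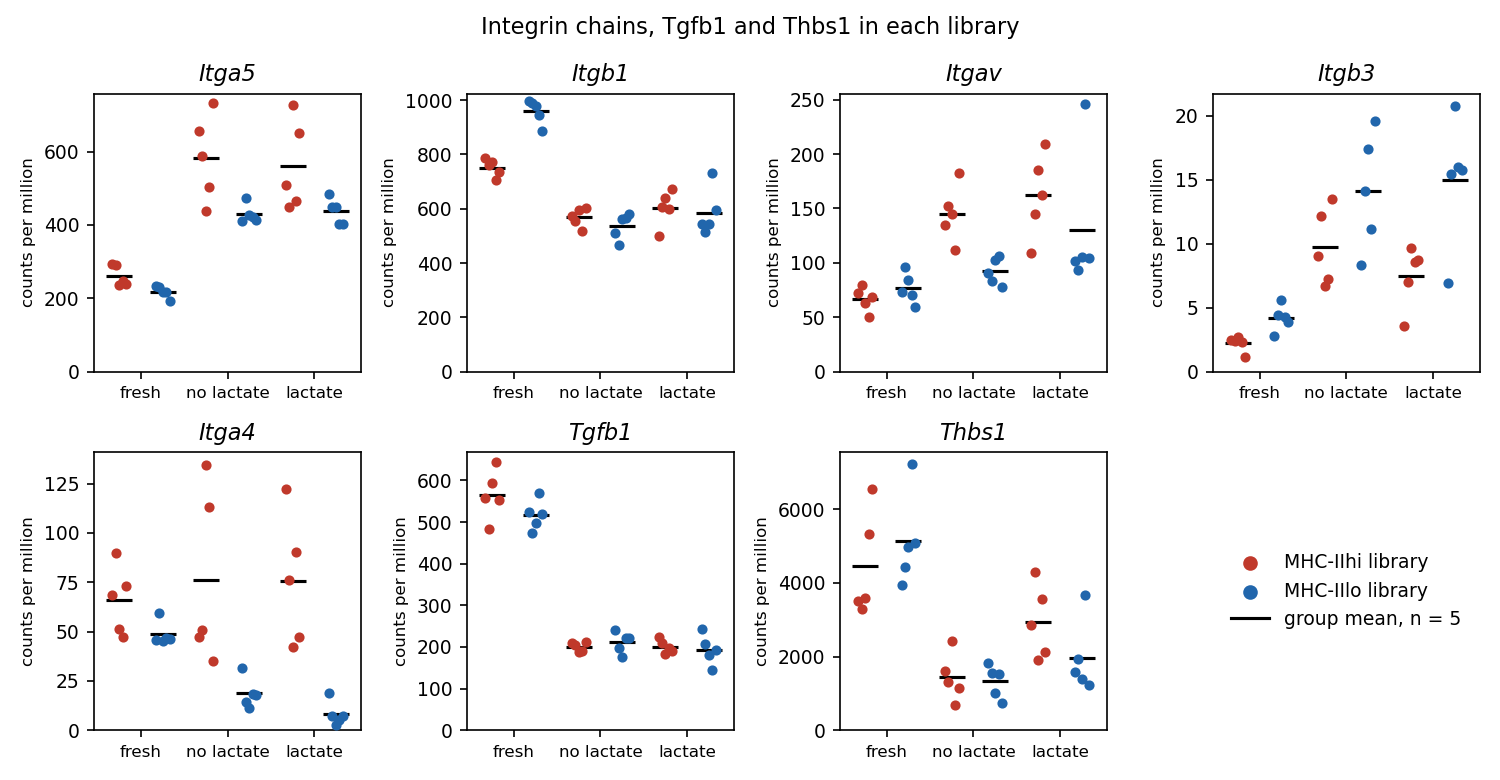
CPM (axes from 0) of 5 integrin chains, Tgfb1 and Thbs1 in each library, red for MHC-IIhi and blue for MHC-IIlo, with group means as lines. Itga5 is higher in every cultured library than in every fresh one, while Tgfb1 lies between 144.9 and 244.2 CPM in culture against 472.8 to 643.3 CPM in fresh cells.

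Other receptors of fibronectin, which include the syndecans, heparan sulphate proteoglycans that bind it beside the integrins, also went both ways. Of 7 tested, 4 rose and 3 fell in MHC-IIhi culture, and 2 rose and 3 fell in MHC-IIlo culture. Sdc1 rose in both (2.55 ± 0.24 and 2.86 ± 0.25, edgeR adjusted p = 9.81e-09 and 2.47e-09). Cd44, the hyaluronan receptor, fell in both (-0.71 ± 0.09 and -0.81 ± 0.09). Sdc4 was higher in fresh MHC-IIlo (459.9 ± 22.4 against 334.3 ± 23.5 CPM, edgeR adjusted p = 0.00209) and lower in MHC-IIlo without lactate (135.9 ± 14.3 against 257.7 ± 28.4 CPM, edgeR adjusted p = 1.13e-06). Its culture change differed between the subsets by -1.36 ± 0.14 (edgeR adjusted p = 1.57e-06). Of 16 genes of integrin adhesion signalling, 7 rose and 8 fell in MHC-IIhi culture and 5 rose and 7 fell in MHC-IIlo culture. Over all genes 31.6% rose and 30.4% fell in MHC-IIhi, and 27.6% and 29.9% in MHC-IIlo. Parvg, the parvin of blood cells, fell by 3.29 in MHC-IIhi on the log2 scale, and the kinase gene Src rose by 1.34.

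Thbs1, which encodes thrombospondin 1, another secreted matrix glycoprotein and an activator of latent TGF-beta, also fell in culture, but by less. It was at 4456 ± 1430 and 5135 ± 1259 CPM in the fresh subsets and at 1433 ± 651 and 1331 ± 440 CPM without lactate, a fall of -1.64 ± 0.31 in MHC-IIhi (edgeR adjusted p = 9.67e-05) and -1.90 ± 0.31 in MHC-IIlo (edgeR adjusted p = 2.28e-05). With lactate it was at 2948 ± 1001 and 1965 ± 988 CPM, and neither change passed (1.06 ± 0.32, edgeR adjusted p = 0.228, and 0.44 ± 0.31, edgeR adjusted p = 0.491). Lactate MHC-IIlo 5 held 3668 CPM of Thbs1, against 1232 to 1939 CPM in the rest of its group. Unlike Fn1, Thbs1 showed no called difference between the subsets in any condition (edgeR adjusted p from 0.137 to 0.941).

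Of 18 matrix glycoproteins and cross-linkers tested, 3 rose and 6 fell in MHC-IIhi culture (31.6% and 30.4% of all genes). In MHC-IIlo culture 2 rose and 10 fell (27.6% and 29.9%). The medians were -0.12 and -1.31. F13a1, the transglutaminase of clotting that cross-links fibronectin to fibrin, had the smallest p in both. It fell from 468.4 ± 145 to 24.4 ± 6.02 CPM in MHC-IIhi (-4.25 ± 0.25, edgeR adjusted p = 4.93e-12) and from 1671 ± 286 to 61.1 ± 11.1 CPM in MHC-IIlo (-4.72 ± 0.25, edgeR adjusted p = 1.29e-12). Its subset order was the reverse of that of Fn1, with MHC-IIlo higher in fresh cells (1.84 ± 0.23, edgeR adjusted p = 7.1e-05). Tgfbi, a TGF-beta induced matrix protein, had the order of Fn1, at 1553 ± 165 CPM in fresh MHC-IIlo against 2528 ± 110 in MHC-IIhi (-0.69 ± 0.09, edgeR adjusted p = 0.000141), 538 ± 132 against 2174 ± 622 without lactate (-1.97 ± 0.34, edgeR adjusted p = 0.00025) and 216.1 ± 94.0 against 1314 ± 227 with it (-2.58 ± 0.35, edgeR adjusted p = 1.83e-05). Vcan, the proteoglycan versican, was lower in MHC-IIlo in both culture conditions (-1.94 ± 0.23 and -2.11 ± 0.23). No member passed for lactate in either subset, against 0.250% of all genes in MHC-IIhi and 1.49% in MHC-IIlo.

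Proteases that cut matrix, with their inhibitors, gave the few calls for lactate. Of 19 tested, 11 rose and 5 fell in MHC-IIhi culture (31.6% and 30.4% of all genes), and 6 rose and 8 fell in MHC-IIlo culture (27.6% and 29.9%). With lactate 1 passed in MHC-IIhi, the collagenase Mmp8 (760.7 ± 110 to 1781 ± 348 CPM, 1.23 ± 0.26, edgeR adjusted p = 0.0472). That call was lost with RLE size factors and with a block on replicate number. In MHC-IIlo 3 rose, among them Plaur, the urokinase receptor (0.89 ± 0.18, edgeR adjusted p = 0.0165), and the collagenase Mmp13 (0.96 ± 0.22, edgeR adjusted p = 0.0367, a call lost when all 30 libraries shared 1 fit). Over all genes 0.250% were called for lactate in MHC-IIhi and 1.49% in MHC-IIlo. In fresh cells 11 of 19 were higher and 1 lower in MHC-IIlo, with Timp2, an inhibitor of metalloproteinases, at 1002 ± 139 against 348.4 ± 63.0 CPM and Plau, urokinase, at 1074 ± 153 against 423.7 ± 80.6 CPM.

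Genes of the TGF-beta pathway moved less than Fn1. Tgfb1, the main ligand, fell in culture from 565.7 ± 59.0 to 200.7 ± 11.2 CPM in MHC-IIhi (-1.47 ± 0.12, edgeR adjusted p = 9.17e-10) and from 516.3 ± 35.8 to 211.3 ± 25.1 CPM in MHC-IIlo (-1.24 ± 0.12, edgeR adjusted p = 1.42e-08). With lactate it was at 199.9 ± 16.3 and 193.6 ± 36.5 CPM, and the change did not pass in MHC-IIhi (0.01 ± 0.16, edgeR adjusted p = 0.991) or MHC-IIlo (-0.16 ± 0.16, edgeR adjusted p = 0.639). Tgfbr2, the ligand-binding receptor chain, was higher in MHC-IIlo in all 3 conditions (1.05 ± 0.13, 1.37 ± 0.22 and 1.12 ± 0.22), the reverse of Fn1. Of 8 ligands, receptors and SMADs tested, 2 rose and 2 fell in MHC-IIhi culture, and 3 rose and 4 fell in MHC-IIlo culture. Of 12 target genes, 5 rose and 4 fell in MHC-IIhi and 4 rose and 5 fell in MHC-IIlo, against 31.6% and 30.4%, and 27.6% and 29.9%, of all genes. Without lactate 7 of the 12 target genes were lower and 1 higher in MHC-IIlo, against 11.6% and 9.20% of all genes. With lactate 4 were lower and 0 higher, against 13.3% and 9.13%. The inhibitory target Smad7 was lower in MHC-IIlo without lactate (-0.86 ± 0.14, edgeR adjusted p = 9.93e-05), as was Skil, a SMAD corepressor (-0.76 ± 0.09, edgeR adjusted p = 5.29e-06).

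Of 17 other regulators of the gene, 6 rose and 5 fell in MHC-IIhi culture (31.6% and 30.4% of all genes). In MHC-IIlo culture 2 rose and 6 fell (27.6% and 29.9%). Egr1 changed by -6.08 and -6.43 on the log2 scale and is also among the 10 nearest profiles. In MHC-IIlo culture the hypoxia factor Hif1a fell by 1.49 and the cAMP-responsive repressor Crem by 1.69. Without lactate 9 of the 17 were lower and 0 higher in MHC-IIlo, against 11.6% of all genes lower. With lactate 5 were lower and 0 higher, against 13.3%. Stat3 (-0.55 ± 0.10 and -0.75 ± 0.10) and Nfkb1 (-0.78 ± 0.12 and -0.76 ± 0.12) were lower in both. Of 7 splicing factors that act on fibronectin exons, 1 rose and 3 fell in MHC-IIhi culture (31.6% and 30.4% of all genes). In MHC-IIlo culture 1 rose and 4 fell (27.6% and 29.9%). Srsf5 led the falls (-1.18 ± 0.14 and -1.03 ± 0.14), and no splicing factor passed for lactate.

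Over the 118 genes of these lists that were tested, the lowest log2 fold changes in culture were -6.08 in MHC-IIhi and -6.43 in MHC-IIlo, both those of Egr1, so none fell as far as Fn1. Fn1 was chosen for its fall and its rise, so its place beyond listed genes is a description and not a result about them. In MHC-IIhi culture 82 of 118 (69.5%) were called, against 62.0% of all genes, and in MHC-IIlo 79 (66.9%), against 57.5%. With lactate 1 of 118 (0.847%) passed in MHC-IIhi and 3 (2.54%) in MHC-IIlo, against 0.250% and 1.49% of all genes. The highest lactate change in MHC-IIhi was 1.23, that of Mmp8, which is under the 1.75 of Fn1. In MHC-IIlo the highest was 1.57, in a gene that was not called, and is above the 0.92 of Fn1. In the culture interaction 6 were higher and 29 lower, where 6.03% and 8.27% of all genes were.

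**Figure D4:**
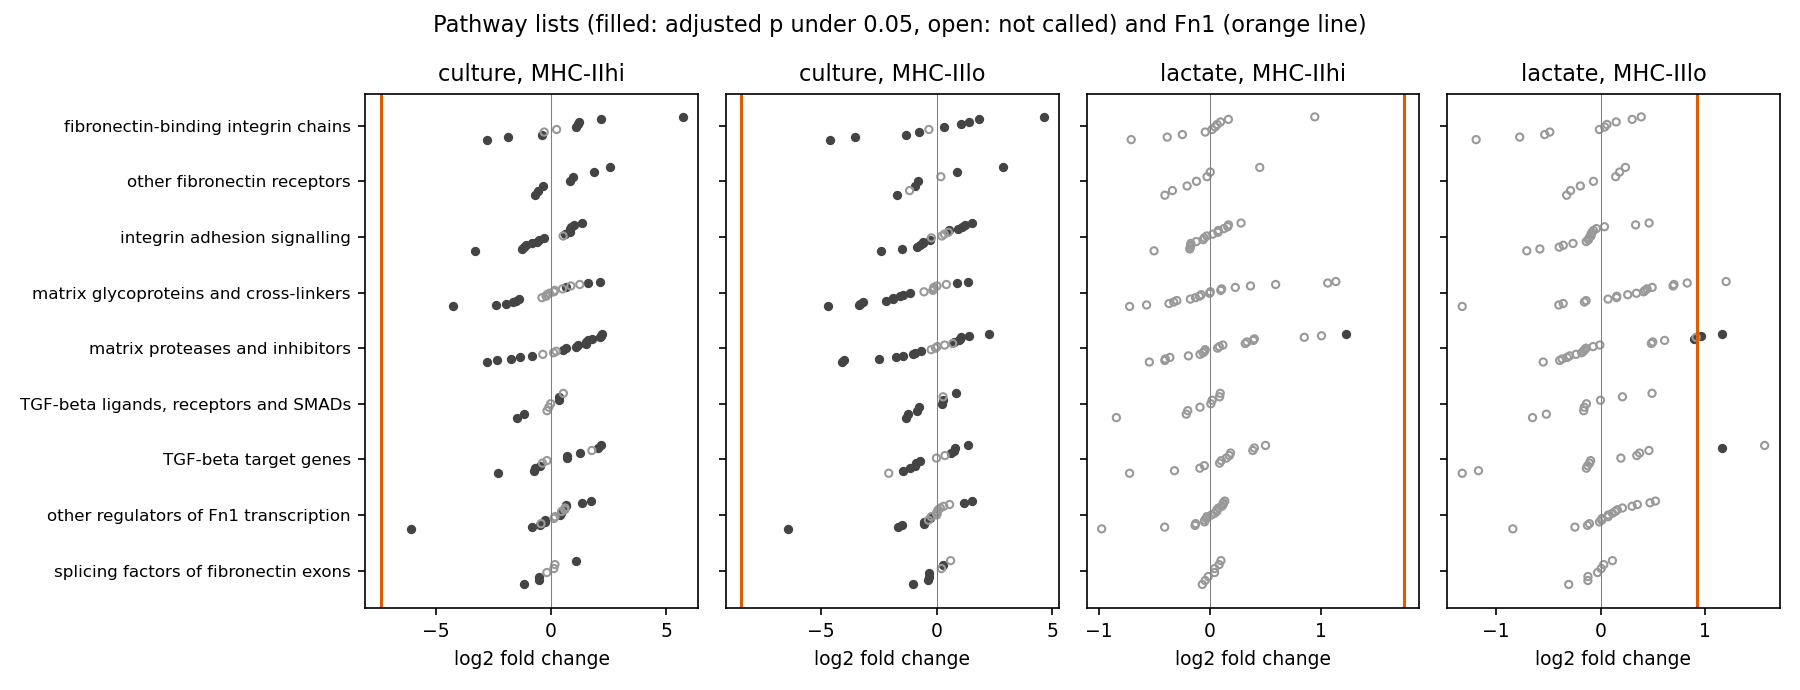
Log2 fold changes of the members of 9 pathway lists from fresh to no-lactate culture and from no-lactate to lactate culture in each subset, 1 point a gene, filled where edgeR called it at an adjusted p under 0.05 and open where it did not, with Fn1 as an orange line. Fn1 lies left of every listed gene in both culture panels (-7.39 and -8.46) and right of every listed gene in lactate MHC-IIhi (1.75). In lactate MHC-IIlo the highest listed gene, at 1.57, lies right of Fn1 (0.92). Fn1 was chosen for these changes.

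Markers of other cells were summed in each library, since bulk RNA cannot tell a change in the number of cells of a type from a change in RNA per cell. The 12 fibroblast markers together held 29.2 to 88.3 CPM in fresh MHC-IIhi and 42.3 to 134.2 CPM in fresh MHC-IIlo, where Fn1 was lower. Of 10 tested in fresh cells, 4 were higher and 0 lower in MHC-IIlo, against 14% and 15.2% of all genes. Col1a1 was at 8.37 ± 7.18 CPM in fresh MHC-IIhi against 29.04 ± 13.7 CPM in MHC-IIlo (edgeR adjusted p = 0.0288, a call lost with limma voom), the reverse of Fn1. In culture the fibroblast sum was at 42.4 to 135.4 CPM over the 4 groups, while Fn1 was between 20.1 and 431.6 CPM. Of 11 markers tested, 3 rose and 0 fell in MHC-IIhi culture (31.6% and 30.4% of all genes). In MHC-IIlo culture 2 rose and 7 fell (27.6% and 29.9%). The medians were 0.44 and -2.001 on the log2 scale. The collagens Col1a1 (-2.35 ± 0.59, edgeR adjusted p = 0.00171) and Col3a1 (-3.49 ± 0.56, edgeR adjusted p = 1.55e-05) fell in MHC-IIlo, as Fn1 did, and their part in the level of Fn1 was not tested. Dcn rose in culture in both subsets (1.73 ± 0.35 and 1.49 ± 0.35), and Pdgfra did not pass in either (edgeR adjusted p = 0.335 and 0.172). No fibroblast marker was at 0 in a whole group.

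The summed level of 7 monocyte markers moved with Fn1 between fresh and cultured libraries. The markers summed to 2505 to 3707 CPM in fresh MHC-IIhi and 2697 to 3259 CPM in fresh MHC-IIlo. Without lactate they held 330.2 to 726.5 CPM in MHC-IIhi and 141.9 to 216.5 CPM in MHC-IIlo, and with lactate 512.2 to 801.3 CPM and 192.7 to 264.9 CPM. Of the 7, 5 fell and 1 rose in MHC-IIhi culture (30.4% and 31.6% of all genes). In MHC-IIlo culture 6 fell and 1 rose (29.9% and 27.6%). Ccr2, the chemokine receptor of inflammatory monocytes, changed by -4.35 in MHC-IIhi and -5.27 in MHC-IIlo on the log2 scale, and Ly6c2 rose by 4.90 and 3.46. With lactate 0 of 7 passed in MHC-IIhi, and 0 rose and 1 fell in MHC-IIlo, against 0.250% and 1.49% of all genes called. The list shares F13a1 and Vcan with the matrix genes above, and its part in the level of Fn1 was not tested.

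The 5 epithelial or tumour markers summed to 485.9 to 619.7 CPM in fresh MHC-IIhi and 31.3 to 96.3 CPM in the cultured groups, but Cdh1 made up 68.5% to 89.3% of the sum in fresh MHC-IIhi, and Krt18 and Epcam were at 0 in all 5 fresh MHC-IIlo libraries. Endothelial markers summed to 93.9 to 127.8 CPM in fresh and 190.3 to 625.8 CPM in cultured libraries. Of 4 tested, 3 rose and 1 fell in MHC-IIhi culture (31.6% and 30.4% of all genes). In MHC-IIlo culture 2 rose and 2 fell (27.6% and 29.9%). Kdr, a VEGF receptor, rose by 6.80 and 5.11 on the log2 scale, while the adhesion molecule Pecam1 changed by -1.63 and -3.82, in the direction of Fn1. The platelet list, dominated by Pf4 and Ppbp, which macrophages can also express, summed to 383.0 to 1186 CPM in fresh MHC-IIhi and 2576 to 4046 CPM in fresh MHC-IIlo, again the reverse of Fn1. Its defining platelet genes Gp9, Gp5 and Gp1bb were under 0.22 CPM in every group mean.

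The 5 dendritic cell markers summed to more in MHC-IIhi, where Fn1 was also higher. The sums were 12.2 to 34.3 CPM in fresh MHC-IIhi against 2.04 to 3.21 CPM in fresh MHC-IIlo. They were 19.8 to 65.7 against 0.367 to 1.11 CPM without lactate and 17.4 to 47.9 against 0.667 to 1.33 CPM with it. All 4 tested in fresh cells and all 3 tested in each culture condition were called lower in MHC-IIlo. Of all genes 15.2%, 11.6% and 13.3% were lower in fresh, no-lactate and lactate cells. T and NK cell markers summed to 6.39 to 11.3 CPM in fresh MHC-IIhi and 0.633 to 3.47 CPM in fresh MHC-IIlo, and B cell markers to 6.28 CPM or less in all groups. The 5 neutrophil markers summed to 1503 to 2288 CPM with lactate in MHC-IIhi against 698.2 to 990.7 CPM without it, and to 177.3 to 640.5 CPM in fresh cells. Most of that sum was Mmp8, also in the protease list. Mmp8 alone of 3 tested passed for lactate in MHC-IIhi, against 0.250% of all genes called. In MHC-IIhi culture 2 of 5 tested rose and 2 fell (31.6% and 30.4% of all genes). S100a9, a calcium-binding protein abundant in neutrophils, and the chemokine receptor Cxcr2 fell there, with -7.88 and -4.98 on the log2 scale. The part of these cells in the level of Fn1 was not tested.

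**Figure D5:**
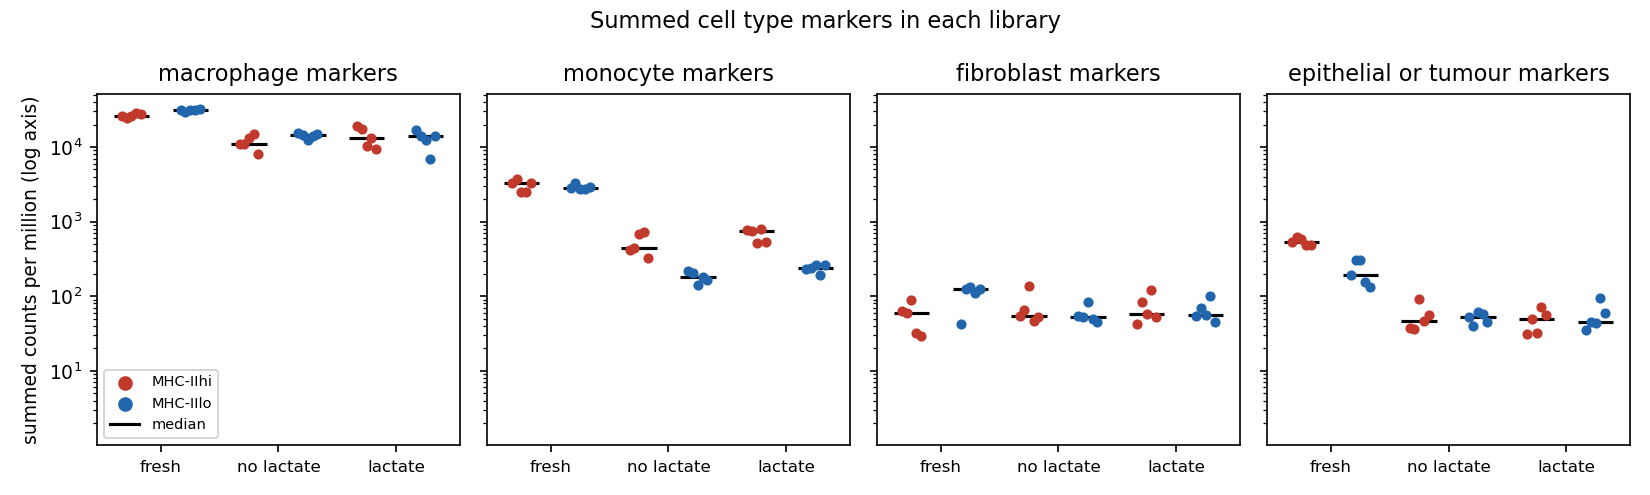
Summed CPM (shared log axis) of macrophage, monocyte, fibroblast and epithelial or tumour markers in each library, red for MHC-IIhi and blue for MHC-IIlo, with group medians as lines. Monocyte markers fall from 2505 CPM or more in fresh libraries to 801.3 CPM or less in cultured ones, while fibroblast markers stay at 135.4 CPM or less throughout.

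The deposited FPKM table does not resolve the fresh level. In each of its 30 columns 10 genes share the highest value of FPKM times length, and in all 10 fresh columns Fn1 is 1 of these 10, so all its fresh values read 726.8 FPKM and the subsets are equal there. In culture the deposited values ran from 5.00 to 10.04 FPKM in no-lactate MHC-IIhi, from 1.51 to 2.66 in no-lactate MHC-IIlo, from 13.8 to 38.8 in lactate MHC-IIhi and from 2.29 to 8.25 in lactate MHC-IIlo.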

How the data were processed

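Bulk RNA-seq libraries (30, in 6 groups of 5) were analysed. The submitters' processing notes name Trimmomatic, STAR, featureCounts and the build GRCm38, without versions. The authors deposited raw counts of 46603 genes, which were used for every main value, and FPKM of 13778 genes, which were used for alternatives. In the deposited FPKM table each column, multiplied by gene length, holds 1 and the same set of values, with the highest shared by 10 genes.

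Counts were tested with edgeR 4.0.16 in R 4.3.3 (filterByExpr, TMM, quasi-likelihood F test, 2-sided, Benjamini-Hochberg over all genes tested, calls at an adjusted p under 0.05). Fresh subsets were fitted on 10 libraries, cultured groups on 20 and culture against fresh on the 20 libraries of the groups compared. Culture, lactate and lactate-against-fresh changes of Fn1 are descriptions, since they chose the gene. SE is the size of the log2 fold change divided by the square root of F. Fn1, the gene lists, markers and tests were chosen with earlier results of these data known.

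Named genes were Fn1, the 10 nearest profiles (log2 CPM, prior count 2), Itga5, Itgb1, Itgav, Itgb3, Itga4, Tgfb1 and Thbs1, up to 3 called members with the smallest p for each pathway list and comparison, and Col1a1, Col3a1, Dcn and Pdgfra. Ccr2, Ly6c2, Krt18, Epcam, Pf4, Ppbp, Gp9, Gp5, Gp1bb, S100a9, Cxcr2, Kdr, Pecam1 and Apol7d were named after their values were seen. The rule also names 2 genes that are not reported here.

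Alternatives were RLE size factors, no filter, DESeq2 1.42.0, limma 3.58.1 (voom, quality weights), 1 fit over all 30 libraries, limma on log2(FPKM + 1) or log2(FPKM + 0.1), where a gene had to reach 1 FPKM in 5 libraries, log2(FPKM + 1) with no such filter, a block on replicate number, and leaving out 1 library at a time. Libraries of a group differed beyond sampling noise (chi-square per degree of freedom 9.05 to 238). Tested on simulated data for the fresh subsets (12600 genes), the procedure recovered 92.1% of 4-fold, 70.7% of 2-fold and 45.6% of 1.5-fold changes, and 6.25% of its calls were false. For the lactate interaction (13464 genes) it recovered 83.1%, 41.0% and 8.82%. In the fresh simulation 63, 58 and 79 genes were changed 4-fold, 2-fold and 1.5-fold. Between the real fresh subsets 29.2% of genes were called, a far larger share, so the simulated rates may not hold for these data. Sequences are from GENCODE M21 transcripts. Reads were not used here.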

Additional observations from a re-analysis of the deposited data

Results flagged for a closer look

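Outlying libraries were looked for in Fn1, 11 named receptor, ligand and fibroblast genes and the 10 nearest profiles, over 132 gene and group combinations of 5 libraries each. In 13 of these the extreme library stood farther from its neighbour than Dixon's 95% critical value allows, and chance gives about 1 in 20. Fn1 was at 103.7 CPM in lactate MHC-IIlo 1, with 42.8 CPM in the next library. In the same group single high libraries held 245.9 CPM of Itgav, 19.1 CPM of Itga4, 17.5 CPM of Trem1, 0.16 CPM of Rab44 and 0.040 CPM of Gfra2. Lactate MHC-IIhi had a single high library for Trem1 (34.1 CPM). In no-lactate libraries Itga5 reached 472.4 CPM and Nr4a1 3.95 CPM in MHC-IIlo, and Gfra2 0.42 CPM in MHC-IIhi. In fresh libraries Gfra2 reached 19.5 CPM in MHC-IIhi, Itga4 59.5 CPM in MHC-IIlo, and Itgb3 was as low as 1.14 CPM in MHC-IIhi.

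The change in culture differed between the subsets by the interaction test with edgeR (MHC-IIlo minus MHC-IIhi, log2 scale). It was -1.07 for Fn1. Among receptor chains it was -0.83 for Itgav, -1.69 for Itga9, -0.41 for Itgb1, -1.56 for Itga4 and -1.36 for Sdc4. Adhesion signalling genes had positive values, 1.40 for Tns1, 0.71 for Tns3 and 0.89 for Parvg. Matrix genes and proteases had -4.45 for Tnc, -1.29 for Tgfbi, -2.94 for Sparc, -3.27 for Mmp2, -1.21 for Mmp14 and -2.01 for Mmp13. In the TGF-beta lists the values were -1.18 for Smad3, 0.27 for Smad2 and -1.61 for Pmepa1. The regulators Ets1, Hif1a and Creb1 had -1.22, -0.99 and -0.68. The fibroblast collagens had -2.94 for Col1a1 and -2.42 for Col3a1. Several of these calls were lost under an alternative. With all 30 libraries in 1 fit those of Fn1, Itga4, Tns1, Tns3, Smad3, Smad2 and Col3a1 did not pass. With the replicate block Smad2 and Col3a1 did not pass, with no filter Smad2 did not, and with limma voom Col1a1 and Col3a1 did not. From the FPKM values Itgb1, Itga4, Tnc, Mmp2 and Col3a1 did not pass with at least 1 setting.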

How the results depend on the processing

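The 3 subset differences of Fn1 kept their direction and their side of the threshold under every count alternative and with each library left out (edgeR adjusted p at most 0.0021 in fresh, 0.000727 in no-lactate and 3.48e-05 in lactate cells). From the deposited FPKM the fresh difference was 0 with either pseudocount and with no filter, because all fresh values there are equal, and it did not pass. The culture interaction with all 30 libraries in 1 fit was -1.07 and did not pass (adjusted p = 0.105). It ran from -1.20 to -0.96 with a library left out (adjusted p 0.00281 to 0.026). Culture change in MHC-IIhi was -6.37 on log2(FPKM + 1), with the filter or without it, and -6.53 on log2(FPKM + 0.1). In MHC-IIlo it was -7.93 on log2(FPKM + 1), with or without the filter. Lactate culture against fresh in MHC-IIhi was -4.61 on log2(FPKM + 1), with or without the filter, and -4.66 on log2(FPKM + 0.1). All of these use the shared top FPKM value as the fresh level.

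With the replicate number as a replicate block the fresh subset difference was -0.99, the no-lactate one -2.41, the lactate one -3.01 and the culture interaction -1.27, and no call of Fn1 changed. Culture change in MHC-IIhi was then -7.05. A number held by 1 library alone, as number 7 is in no-lactate MHC-IIhi, drops that library from the block fit. Same-number fresh libraries had correlations of deviations of 0.070 to 0.497, with 4 of 5 over 0.1 and 4 of 5 correlating best with their own number, as between the lactate subsets (-0.053 to 0.523) and between no-lactate and lactate MHC-IIlo (0.054 to 0.383). In the other 4 group pairs at most 3 were over 0.1. Since not every pair was over 0.1, pairing by number was not taken as shown, and the matches are a hint from the data only.

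With 1 library left out, the lactate change in MHC-IIlo ran from 0.37 (without library 1) to 1.06 (without library 5), and that in MHC-IIhi from 1.61 to 1.91. The lactate interaction ran from -1.37 to -0.68 (adjusted p 0.134 to 0.896). The number of genes called for lactate in MHC-IIlo depended on the setting. The main fit called 123 higher and 79 lower, and DESeq2 379 and 310. With limma voom it was 710 and 792, and with the replicate block 499 and 612. Of 486 counts of called list members under alternatives, 432 were within 1.5 times the main count and 54 were not. Of 144 calls of named list members, 116 passed under all 9 alternatives, 28 were lost or untested under at least 1, and 0 changed sign. Depth did not limit Fn1, which had at least 509 counts in a library. It limits Gfra2 and Rab44 in culture, where levels were of a few reads. In MHC-IIlo culture Pi16 was also near the floor, with means of 0.165 CPM without lactate and 0.148 CPM with it. Gabbr2 was low there too, at 0.43 and 0.40 CPM.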
